A study of Mus musculus with 3 samples.

Results

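The B cells of the retinal suspension were 160 of 5400 barcodes kept from 3 single-cell libraries. A barcode was kept with 500 to 6000 detected genes and with 1 to 20% of its unique molecular identifiers (UMIs, each counting 1 captured RNA molecule) on mitochondrial genes. It was counted as a B cell where at least 4 of Cd79a, Cd79b, Ighm, Igkc, Ly6d, Ms4a1, H2-Aa and Cd74 had a UMI, with Cd79a or Cd79b among them. The cells were chosen by the counts of these 8 genes, so those levels are given as a description only.

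The study compared retinal vessels across age in C57BL/6JRj mice of 3 (young), 12 (adult) and 23 months (old), with no allele or treatment other than age. Retinas of a pair of animals were pooled for each age, dissociated with enzymes and passed over a magnetic column with beads against CD31, an adhesion molecule of endothelial cells that leukocytes and platelets also carry. Each age gave 1 droplet library with 3′ tags. Droplets do not record where a cell lay, so cells inside vessels and cells in the tissue cannot be told apart, and the enrichment sets the shares of cell types. With 1 library per age, no test between ages was possible: the exact 95% intervals below cover counting error only, no p-values are given, and age cannot be told apart from animal, pool or library.

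B cells are the lymphocytes that carry an antibody on their surface as antigen receptor. The antibody is held by CD79A and CD79B, which signal inside the cell, and it joins a heavy chain, IgM and IgD on cells that have not switched class, to a kappa or a lambda light chain. B cells also present peptides on MHC class II. They mature in the bone marrow, pass through blood to follicles of spleen and lymph nodes, and are rare in the healthy retina.

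The young library held 15 B cells of 1713 kept barcodes (0.876%, 95% Clopper-Pearson interval 0.491 to 1.44%). The adult library held 83 of 1974 (4.20%, 3.36 to 5.19%) and the old library 62 of 1713 (3.62%, 2.79 to 4.62%). The adult and old intervals overlapped and both lay above the young one. Library totals were 16577026 to 19977238 UMIs, and the B cells carried 131007, 398084 and 309696 of these in the young, adult and old library. The median B cell held 4497 UMIs and 1599 genes in the young library, 3876 UMIs and 1380 genes in the adult library, and 4315.5 UMIs and 1445.5 genes in the old library. Other kept barcodes had medians of 6139 to 6505 UMIs. Adult and old libraries shared 2 kept barcodes, neither of them a B cell, and the other library pairs shared none.

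The rule separated the barcodes widely. Of the B cells, 130 held UMIs of all 8 genes and 22 of 7 genes, whereas 4958 of the other kept barcodes held none of the 8 and 244 held 1. Just inside the threshold lay 2 adult droplets with 4 genes. One had 12812 UMIs in all, with 2 of Cd79a, 3 of Ighm, 1 of H2-Aa and 7 of Cd74. The other had 3876 UMIs, with 10 of Cd79a, 4 of Cd79b, 20 of Ighm and 10 of Ly6d but none of Igkc or of the class II genes. Just outside lay 2 adult droplets that held 4 of the genes but neither Cd79a nor Cd79b.

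Some of these droplets also held the markers of another cell type. A droplet was called mixed where at least 3 endothelial, pericyte, Müller glia, T cell or macrophage markers, or at least 5 rod markers, had a UMI, a definition set after the values were seen. It took 6 of 15 B cells in the young library (40.0%), 9 of 83 in the adult library (10.8%) and 6 of 62 in the old one (9.68%). All 6 young mixed droplets met both the endothelial and the pericyte count, while the adult ones met the endothelial (7), pericyte (3) or rod (3) count. Median UMIs were 15806.5, 6101 and 11365 in the mixed droplets of the 3 ages and 3674, 3819 and 4186.5 in the others. The doublet caller Scrublet marked 7 B cells in all, and all 7 were mixed. The remaining 139 unmixed B cells were 9 young, 74 adult and 56 old. Their share of kept barcodes was 0.525% (0.241 to 0.995%) at 3 months, 3.75% (2.95 to 4.68%) at 12 months and 3.27% (2.48 to 4.22%) at 23 months.

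**Figure D1:**
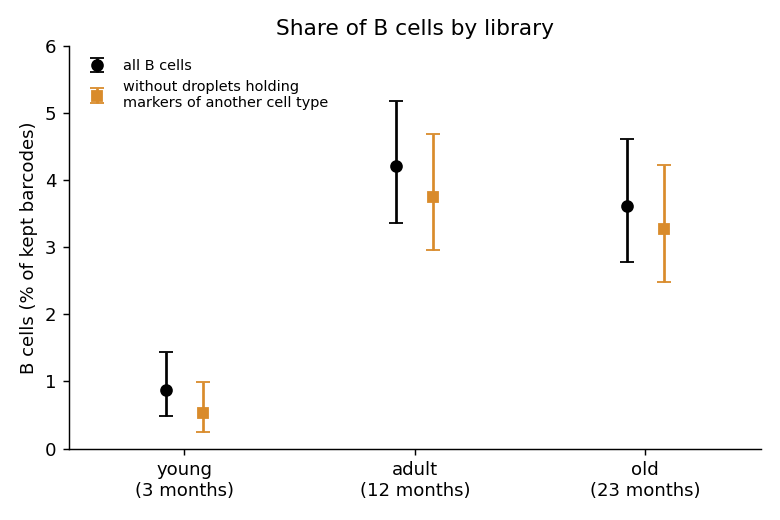
Share of B cells among kept barcodes (%, y axis) in the young, adult and old library (x axis), for all B cells (circles) and without mixed droplets (squares); bars are exact 95% binomial intervals of 1 library each. Both measures put the young library lowest, at 0.876% and 0.525%, and the adult and old intervals overlap.

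Genes that the rule did not use also marked these barcodes as B cells. All 25 genes of a B lineage list were detected in the B cells of each library, and their summed level in unmixed cells was 12947, 12045 and 12873 counts per 1000000 UMIs (CPM) in the young, adult and old library. Pax5, the factor that fixes B cell identity, gave 197 UMIs in 95 of the 160 cells (59.4%) and 1 UMI in the 5240 other barcodes. Fcmr, the receptor for IgM, was seen in 139 cells (86.9%) with 3 UMIs elsewhere. Both genes were at 0 in the 688 rod photoreceptors used as a measure of free RNA, whose median depth was 2130 to 2497 UMIs.

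Apart from the 8 genes of the rule, those ranked highest by B cell level over other barcodes included Iglc2, Iglc1 and Iglc3 of the lambda light chain, Ighd, Fcmr, Bank1, Vpreb3, Pax5, H2-DMb2, Fcrla, Siglecg, Tnfrsf13c and 2 unnamed transcripts, Gm31243 and Gm30211. Iglc2 was seen in 84.4% of B cells, Bank1, an adaptor of the antigen receptor, in 75.0%, and Tnfrsf13c, the receptor for the survival factor BAFF, in 56.3%. H2-DMb2, which helps to load class II molecules, was seen in 78.8% of B cells. Each of these genes was seen in at most 0.153% of other barcodes. Ebf1, the factor that opens the B lineage programme, was in 99.4% of B cells but also in 50.04% of other barcodes, though in under 1% of rods. Mef2c was seen in 60.1% of adult and 55.0% of old rods, and Ralgps2 in 21.5% and 18.7%. In unmixed B cells their shares were 92.8% and 84.2%, so these 2 list genes were seen in more B cells than rods but were not particular to B cells.

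**Figure D2:**
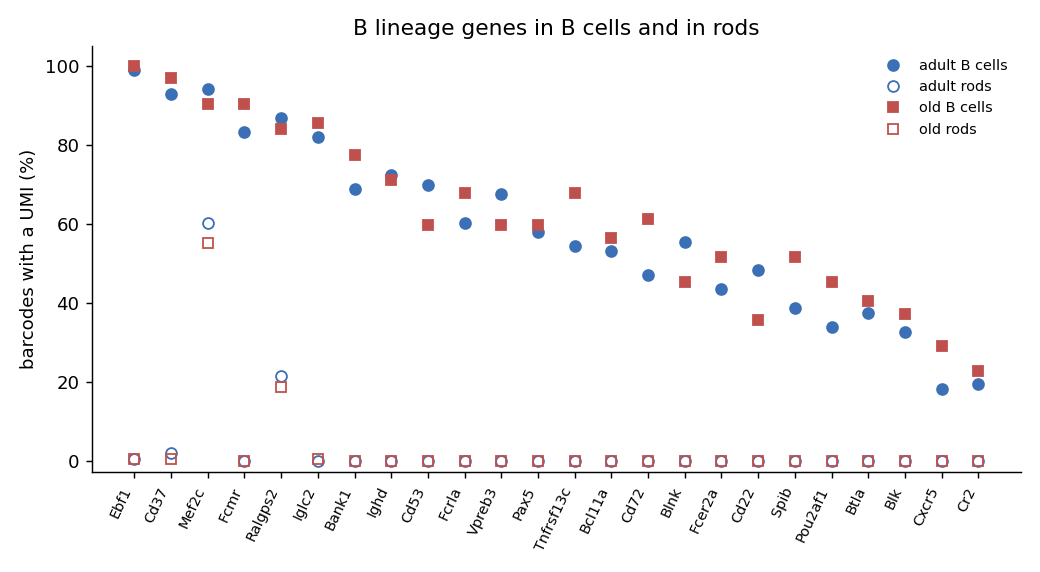
Percent of barcodes with a UMI (y axis) for genes of the B lineage list (x axis) in adult (circles) and old (squares) B cells (filled) and rods (open). B cells lie above rods for every gene shown in both libraries, and rods are well above 0 for Mef2c (60.1 and 55.0%) and Ralgps2 (21.5 and 18.7%) alone.

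Markers of T cells, NK cells, dendritic cells and neutrophils were at or near 0 in unmixed B cells, while some listed for monocytes and macrophages were not. The 12 T cell markers summed to 6.66 CPM in adult and to 0 in young and old unmixed cells, and all 64 old UMIs of the list lay in mixed droplets, 1 of which met the T cell count. The monocyte list summed to 501 CPM in young, 590 in adult and 794 in old unmixed cells. Of this, Plac8, which B cells also express, made up 501, 580 and 698 CPM, and Ccr2 was at 0 and Lyz2 at 1 UMI. Ly6c2, another monocyte marker, had 17 UMIs (70.6 CPM) in 5 of the old unmixed cells and 0 in the adult ones. The macrophage and microglia list summed to 167, 140 and 121 CPM, with Tyrobp, a signalling adaptor of myeloid cells, at 27.8, 36.7 and 62.3 CPM and Csf1r at 0. Pecam1, which encodes the CD31 used for enrichment, had a UMI in unmixed B cells at shares of 22.2% (young), 24.3% (adult) and 23.2% (old). In rods the share was 0 to 0.957%, and in endothelial barcodes it was 89.6 to 94.9%. By level, unmixed B cells had 69.97 CPM of Pecam1 in the adult and 79.0 CPM in the old library, against 620 and 608 CPM in endothelial barcodes. Pecam1 RNA was thus measured in B cells at about the same share in every library.

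Genes of resting, recirculating B cells were widely detected in the 139 unmixed cells. Klf2, which restrains activation and promotes exit to blood, was in 97.1% of cells, S1pr1, the receptor that draws lymphocytes out of tissue, in 70.5%, and Ccr7, which guides them into lymph nodes, in 60.4%. Fcer2a (CD23, a follicular marker) was in 46.8% of cells and Cr2 (CD21, high on marginal zone cells) in 20.1%. None of these 5 genes exceeded 2.76% of rods pooled over the libraries, although Klf2 was in 3.80% of young, 1.25% of adult and 4.31% of old rods. Beside them, Cd24a, which is high in immature B cells, was in 58.99% of cells. Cd93, another early marker that endothelial cells also express, was in 17.5% of all 160 B cells but in 9.35% of the unmixed ones.

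Of the genes listed for other B cell states, the more restricted ones gave no or few UMIs and more widely used ones were detected. Jchain, which joins secreted antibody, Tnfrsf17, the BCMA receptor of plasma cells, and Derl3 gave no UMI in the 160 cells, and Sdc1 gave 1. Mzb1, a chaperone of IgM that plasma cells hold at high levels, was in 61.3% of cells, Irf4 in 40 of the 160 and Xbp1 in 18.8%, which was also in 34.2% of other barcodes. The germinal centre genes Gcsam and Nuggc were at 0, and Bcl6 was in 10.0% of B cells against 8.49% of other barcodes. Tbx21, Itgax and Itgam, which mark the age-associated B cell subset described in old mice, were at 0 in all 3 libraries, as were Rag2, Dntt, Vpreb1 and Igll1 of bone marrow precursors. Other genes of the age-associated list were detected: Cd86, Zbtb20 and Apoe were in 14.4%, 22.3% and 25.9% of the 139 unmixed cells. Of dividing-cell genes, Cdk1, Ccnb1, Ccnb2, Birc5 and Rrm2 were at 0, while Mki67 and Top2a were each in 2 cells. Pcna was in 18.8% of B cells and 21.2% of rods, Stmn1 in 8.75% and 10.03%, and Mcm3, a replication factor, in 10.6% and 0.145%. A count of 0 in 160 cells allows a share of cells with a UMI of up to 1.88% and a level of up to 3.58 CPM.

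Heavy chain RNA was read as Ighm or Ighd in nearly every cell, which the rule favoured, since Ighm is one of its 8 genes. Ighm led the heavy chain constant genes in 74 of 83 adult cells, in 59 of the 61 old cells with a heavy chain UMI and in 13 of 15 young cells. Ighd led in 2 young, 8 adult and 2 old cells. The median cell held 12 UMIs of Ighm and 2 of Ighd, and both genes were seen together in 111 of 160 cells (69.4%, 61.6 to 76.4%). The share with both was 60.0% in young, 69.9% in adult and 71.0% in old cells. Genes of switched classes gave 12 UMIs in 6 cells in all (3.75%, 1.39 to 7.98%), which were 3 adult and 3 old cells.

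Kappa was called where Igkc made up at least 50% of light chain UMIs. This held in 13 of 15 young, 70 of 82 adult (85.4%, 75.8 to 92.2%) and 52 of 62 old cells (83.9%, 72.3 to 92.0%). The adult count includes 1 cell with 9 UMIs of each chain. Igkc is one of the 8 rule genes and no lambda gene is, so the rule admitted kappa cells more readily and these shares are partly fixed by it. Adult and old shares differed by less than their counting intervals. In cells called kappa the median was 41 UMIs of Igkc, range 7 to 308, beside 11 of lambda. In cells called lambda the medians were 57.5 UMIs of lambda and 3.5 of Igkc, and 11 of the 24 held no Igkc at all. Lambda UMIs were therefore spread over the kappa cells: of the 159 cells with a light chain, lambda took 10 to 20% of light chain UMIs in 36, 20 to 30% in 47 and 30 to 50% in 33, and over 90% in 13. Where kappa was called only at 90% or more of light chain UMIs, its share was 15.9% in adult and 9.68% in old cells. Iglc2 and Iglc3 are near-identical in sequence, so how the counting split UMIs between them is uncertain. Whether the lambda UMIs in kappa cells are lambda RNA of those cells, free RNA or misassigned reads was not tested.

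**Figure D3:**
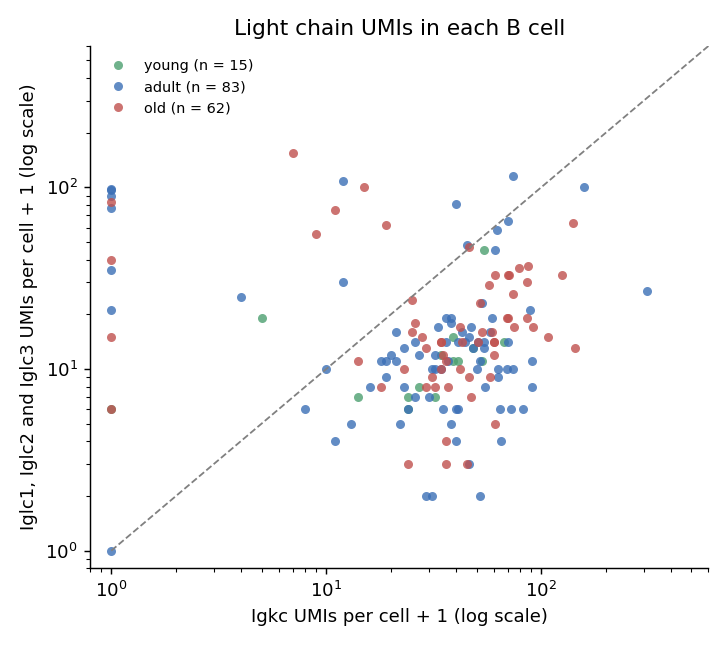
UMIs of Igkc (x axis) and of Iglc1, Iglc2 and Iglc3 together (y axis) in each B cell, both plus 1 on log scales, coloured by library; the dashed line marks equal counts. Most cells lie below the line with some lambda UMIs (median 11 in kappa cells), and the 24 lambda cells lie above it, 11 of them without Igkc.

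Variable genes, which differ between B cell clones, were read only in part from 3′ tags. An Ighv gene was seen in 57 cells, with at most 2 UMIs a cell. The 57 cells spread over 37 Ighv genes, and the most shared, Ighv1-76, was in 6. An Igkv gene was seen in 78 cells over 37 genes, with Igkv1-135, Igkv19-93 and Igkv6-15 each in 6 cells. The 29 cells with both an Ighv and an Igkv gene gave 29 different pairs. Iglv genes, of which 3 were seen in 26 cells, were left out of the pairs.

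Class II RNA varied widely among the unmixed B cells, and the cells lowest in it are described here. In 10 of 139, 5 adult and 5 old, H2-Aa had at most 1 UMI, although their median depth was 4053 UMIs against 3952 in the other 129. This limit was set after the values were seen, with no gap beyond it, since 5 more cells had 2 UMIs of H2-Aa and 1 had 3, and the other class II genes were low with it: H2-Ab1 was at 204 CPM against 3232 and H2-Eb1 at 178 against 3174. Cd74, the class II chaperone, was at 6628 CPM against 12795. Ighd was at 51.0 CPM against 629, while Ighm was at 6195 CPM against 3113. Vpreb3, which early B cells hold at high levels, was at 3008 CPM in the 10 cells and in each of them, against 610 CPM and 60.5% of the others. Cd24a was at 1173 CPM against 359, Ly6d at 7699 against 3146 and Ms4a1 at 4359 against 1414. Lambda was called in 5 of the 10 and in 13 of the 129. Cd93, another early marker, did not set the 10 cells apart, at 25.5 CPM in 1 of them against 27.9 CPM in 12 of the 129, and the 1 Rag1 UMI that lay in the 10 cells stood beside 3 Rag1 UMIs in barcodes that were no B cells. Cr2 had no UMI in the 10 cells, which allows up to 76.5 CPM, and 74.4 CPM in the 129, so no difference was detectable at this depth. Ighm, Igkc, Ly6d, Ms4a1, Cd74 and H2-Aa are rule genes, and a cell with no UMI of H2-Aa had to meet the rule through the others, so the levels of those genes and the lambda calls are partly fixed by how the cells were chosen.

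Adult and old B cells were compared gene by gene over summed UMIs. Among 4364 genes with at least 20 UMIs in the 2 libraries together, 143 were at least 2-fold higher in old cells (3.28%) and 257 at least 2-fold lower (5.89%), with a median log2 ratio of −0.02. In unmixed cells these were 106 (3.37%) and 103 (3.27%) of 3150 genes, so the share of higher calls moved from 35.8% to 50.7% once mixed droplets were left out. Ratios are of old to adult CPM.

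Of the 33 gene lists, the interferon-stimulated genes had the most members past 2-fold. They encode antiviral sensors, effectors and signalling factors that cells switch on when type I interferon engages its receptor. Of 21 measured members 11 were at least 2-fold higher in old cells and 0 lower, with a median log2 ratio of 1.05. Over all genes 3.28% were past 2-fold higher and the median was −0.02. Their sum was 2218 CPM in adult and 4873 CPM in old cells, a ratio of 2.20 (2.02 to 2.39). In unmixed cells 11 of 16 measured were past 2-fold, again with 0 lower (3.37% over all genes), the median log2 ratio was 1.54 and the summed ratio 2.47 (2.24 to 2.72). The endothelial list was also higher in these old cells, at 494 CPM against 243 in adult (2.03, 1.51 to 2.76), of which Ly6a made up 440 and 200 CPM, and its part in the result was not tested. The young sum was 2786 CPM in all 15 cells. The other 9 list members had too few UMIs. Earlier results of these data were known when the list was chosen.

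Ifi27l2a carried the largest part of that sum. It encodes a small membrane protein induced by interferon. Its level was 397 CPM in young, 568 in adult and 2150.5 in old B cells, which was 52, 226 and 666 UMIs, and the ratio of old to adult was 3.79 (3.25 to 4.42). In unmixed cells the levels were 919, 673 and 2360.2 CPM, the ratio was 3.51 (2.98 to 4.14), and the young level rested on 9 cells, 1 of which held 45.5% of the UMIs. Old unmixed cells were thus higher than adult, with broad overlap between cells: the median cell had 225 CPM (range 0 to 4004) in adult and 940 CPM (0 to 14538) in old. Ifi27l2a had a UMI in 39 of 74 adult (52.7%) and 42 of 56 old unmixed cells (75.0%). With each cell thinned to 1000 UMIs these shares were 31.1% (20.8 to 42.9%) and 55.4% (41.5 to 68.7%), with no cell left out. In rods the share before thinning was 0 to 0.312%. Endothelial barcodes had a UMI of it in 24.9% (adult) and 48.3% (old), or 9.47% and 23.5% when thinned. Without Ifi27l2a, 10 of 20 list members were past 2-fold and the summed ratio was 1.65 (1.49 to 1.83), or 1.95 (1.72 to 2.21) in unmixed cells.

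**Figure D4:**
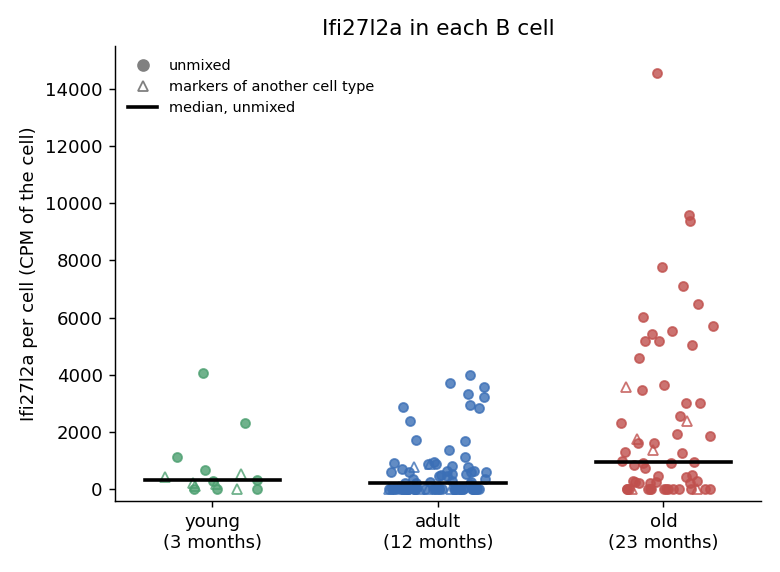
Level of Ifi27l2a in each B cell (CPM of that cell, y axis) by library (x axis); circles are unmixed cells, triangles mixed droplets, and lines the median of unmixed cells. The medians are 319 CPM in young, 225 in adult and 940 in old cells, and the values overlap between libraries.

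Among the signalling factors, Irf7, the factor that amplifies interferon production, was at 35.2 and 100.1 CPM, ratio 2.85 (1.47 to 5.79). In unmixed cells Irf7 gave 4 adult and 23 old UMIs, ratio 7.17 (2.45 to 28.5). It had no UMI in the 9 young unmixed cells, which allows up to 83.5 CPM. The UMIs of Irf7 lay in 14 of 56 old and 4 of 74 adult unmixed cells (5.41%), beside shares of 7.18% of old and 5.61% of adult rods, so the adult share was no higher than the background.

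The further members named here had ratios above 1 over all B cells. Zbp1, a sensor of nucleic acids in the cytosol, had a ratio of 3.86 (1.83 to 8.84), and Ifi213 and Ifi214 of the Ifi200 family had ratios of 3.12 and 3.24. Trim30a, which dampens innate signalling, had 2.57 and Rtp4 2.30. Xaf1 had 2.07, which turned to 0.89 with cells thinned to 1000 UMIs. Ifit3, which blocks viral RNA translation with its partners, went from 19 UMIs in adult to 41 in old cells, ratio 2.77 (1.57 to 5.06), and from 5 to 34 in unmixed cells, ratio 8.48 (3.30 to 27.8). Eif2ak2, the kinase PKR, had 3.00 (1.08 to 9.52) on 6 and 14 UMIs. Bst2, which tethers virus particles, was past 2-fold only without mixed droplets, at 2.35 (1.27 to 4.51) against 1.42. Ifit3 and Ifit3b, and the Ifi200 genes, share sequence, so their split is uncertain.

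The mixed droplets turned the direction of 1 member. Isg15, a ubiquitin-like protein, was lower in old than adult cells over all B cells, with 40 adult and 18 old UMIs (ratio 0.58, 0.31 to 1.03), although it was 1.06 with 5 rule genes required. In unmixed cells it gave 2 adult and 12 old UMIs (ratio 7.48, 1.67 to 68.8), so nearly all of the adult UMIs lay in mixed droplets. Of the 40 adult UMIs, 16 lay in 1 droplet of 3876 UMIs, with 20 of Ighm and 88 of lambda. That droplet was called mixed by its endothelial markers and held 4 rule genes, so requiring 5 also left it out. Oasl2 moved likewise, from 1.06 to 13.7 (1.99 to 590.5) on 1 adult and 11 old UMIs. Not every member was higher: Ddx58, the RNA sensor RIG-I, was at 65.3 CPM in adult and 58.1 in old cells (0.89, 0.46 to 1.69), and Ifi203 had 1.16 (0.92 to 1.45).

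Per cell, the interferon list summed to a median of 1313 CPM in the 74 adult and 3359 CPM in the 56 old unmixed cells, with ranges of 0 to 8971.5 and 0 to 21379.7 CPM. Among these cells the largest held 5.56% of the list's adult and 7.78% of its old UMIs, so no single unmixed cell carried the sum. Over all B cells the maximum was 19865.8 CPM in adult, in a mixed droplet, and 21379.7 CPM in old. There the cell with the most list UMIs held 9.40% of them in adult and 6.69% in old. Free RNA of the rod profile was estimated at 1.23% of adult and 0.657% of old B cell UMIs. Endothelial barcodes of the same libraries had a summed ratio of 1.55 (1.501 to 1.59), and whether the B cell and endothelial ratios differ between animals was not tested.

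The 250 bases upstream of the start of these genes were read from RefSeq (GRCm38.p6) and searched on both strands for the interferon-stimulated response element, GAAA and GAAA with any 2 bases between, to which the factors of the interferon response bind. It stood in 3.46% of 27025 genes with a window and in 10 of the 17 measured list members with one (58.8%). Of the 11 members past 2-fold, 7 had a window and 4 of these held the element, and of the other 10 members 6 did, so its presence did not divide the genes by their ratio. Shown are windows of members with the element, because they let the reader see the site beside the ratio, with the match in capitals, on the gene's own strand and 5′ to 3′. Ifit3 lies at chr19:34583279-34583528 on the plus strand with matches that start 156 and 122 bases upstream. Trim30a lies at chr7:104465194-104465443, Ifi213 at chr1:173599273-173599522, Ifi214 at chr1:173535958-173536207 and Isg15 at chr4:156200819-156201068, all on the minus strand, with the first match 36, 73, 79 and 78 bases upstream. In Isg15 3 overlapping matches form 1 run.
Ifit3: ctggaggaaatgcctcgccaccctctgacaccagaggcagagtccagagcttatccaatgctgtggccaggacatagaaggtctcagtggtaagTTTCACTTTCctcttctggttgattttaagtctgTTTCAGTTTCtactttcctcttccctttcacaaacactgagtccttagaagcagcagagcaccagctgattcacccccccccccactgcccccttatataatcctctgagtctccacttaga
Trim30a: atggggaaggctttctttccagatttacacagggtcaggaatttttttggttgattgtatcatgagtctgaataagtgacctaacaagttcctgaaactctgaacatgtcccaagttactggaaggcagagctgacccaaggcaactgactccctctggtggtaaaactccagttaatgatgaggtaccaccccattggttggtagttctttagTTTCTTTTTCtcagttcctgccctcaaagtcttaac
Ifi213: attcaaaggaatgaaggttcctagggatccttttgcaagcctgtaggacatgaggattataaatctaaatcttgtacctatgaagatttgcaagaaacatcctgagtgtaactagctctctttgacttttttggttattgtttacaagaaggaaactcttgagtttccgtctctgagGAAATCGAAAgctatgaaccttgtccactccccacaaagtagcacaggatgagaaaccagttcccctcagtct
Ifi214: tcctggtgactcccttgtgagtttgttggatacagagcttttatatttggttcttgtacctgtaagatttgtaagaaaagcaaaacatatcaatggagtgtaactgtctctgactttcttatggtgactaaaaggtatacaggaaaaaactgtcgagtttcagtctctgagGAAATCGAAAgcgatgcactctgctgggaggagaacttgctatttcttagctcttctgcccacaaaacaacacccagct
Isg15: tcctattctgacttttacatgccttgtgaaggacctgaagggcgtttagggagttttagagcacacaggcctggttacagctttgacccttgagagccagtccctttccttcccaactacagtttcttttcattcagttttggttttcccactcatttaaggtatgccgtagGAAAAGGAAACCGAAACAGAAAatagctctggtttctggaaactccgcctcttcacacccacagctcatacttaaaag

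Ifi213 and Ifi214 held the same match, GAAATCGAAA. Ifit3 (2.77) and Isg15 (0.58 over all and 7.48 in unmixed cells) both held more than 1 match. A match is a run of letters and no evidence of binding.

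MHC class I genes, which present peptides from inside the cell and respond to interferon, were higher in sum in old cells, although few passed 2-fold. Of 13 measured members 2 were past 2-fold and 0 lower, with a median log2 ratio of 0.56, beside 3.28% higher and 5.89% lower over all genes. Their sum was 4602 CPM in adult and 6642 in old cells, ratio 1.44 (1.35 to 1.54), and 1.39 (1.29 to 1.49) in unmixed cells. H2-T22 had 2.57 (1.51 to 4.50), and in unmixed cells 2.88. H2-Q7 had 2.05 (1.52 to 2.78) and 1.68 in unmixed cells, which is under 2-fold. The classical genes H2-K1 and H2-D1 had 1.49 (1.29 to 1.71) and 1.48 (1.30 to 1.68), and B2m, the light chain of every class I molecule, 1.42 (1.24 to 1.63). Tap2, which carries peptides to class I, had 0.75 (0.39 to 1.42), and Psmb8 of the immunoproteasome 1.13. The H2-Q and H2-T genes share sequence, so their split is uncertain. The young sum was 3175 CPM. In endothelial barcodes of the same libraries the summed ratio of the class I list was 1.73 (1.68 to 1.77).

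**Figure D5:**
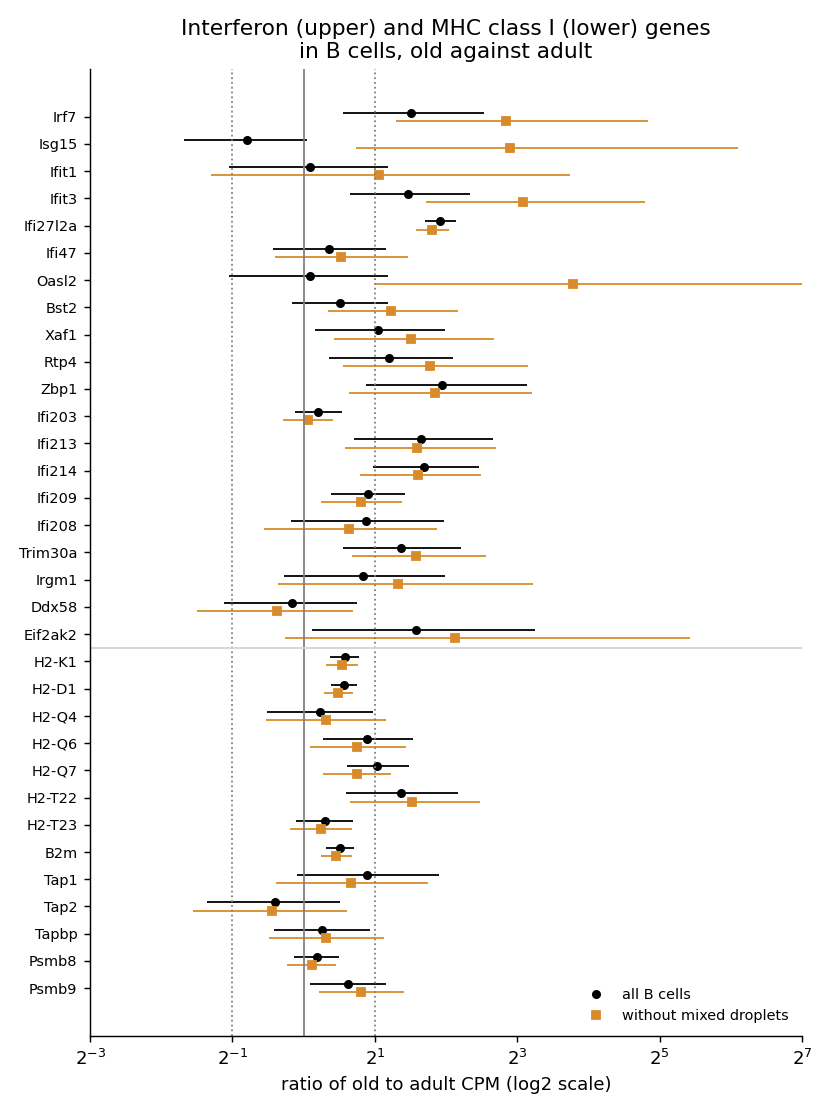
Ratio of old to adult CPM (x axis, log2 scale) for interferon-stimulated (upper) and MHC class I genes (lower), over all B cells (circles) and without mixed droplets (squares); lines are exact 95% counting intervals and dotted lines mark 2-fold. Ifi27l2a stands at 3.79 and 3.51 with a narrow interval, Isg15 turns from 0.58 to 7.48, and H2-K1, H2-D1 and B2m lie between 1.37 and 1.49.

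MHC class II genes, by which B cells present antigen to helper T cells, had ratios from 0.59 (H2-Eb2, 0.27 to 1.22) to 1.66. None of 11 was past 2-fold, against 3.28% higher and 5.89% lower over all genes, and 8 of the 11 were above 1. Their median log2 ratio was 0.20 and their sum was 19021 CPM in adult and 21149.8 in old cells, ratio 1.11 (1.08 to 1.15). Cd74 had 1.15 and H2-Ab1 1.19, while H2-Aa had 1.03 and H2-Eb1 1.01. Ciita, the factor that switches the group on, had 1.66 (0.94 to 2.96). Since Cd74 and H2-Aa chose the cells, this sum is partly fixed by the rule.

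The B lineage genes showed none of 25 past 2-fold, where 3.28% of all genes were higher and 5.89% lower, a median log2 ratio of 0.16 and a summed ratio of 1.09 (1.04 to 1.14). Pax5 had 1.01 (0.74 to 1.38), Ebf1 1.05 (0.93 to 1.18) and Vpreb3 0.92 (0.76 to 1.11). The promoters of Vpreb3 and Cd22 are shown because they held motifs of B cell factors. Vpreb3 at chr10:75948050-75948299, plus strand, held the octamer ATGCAAAT, on the other strand and 45 bases upstream, a motif of POU factors that stood in 1.81% of all genes and in 2 of 20 of the list. Cd22 at chr7:30879029-30879278, minus strand, held the EBF1 motif (TCCC and GGGA with any 2 bases between) 49 bases upstream, which stood in 0.914% of all genes and in 1 of the 20.
Vpreb3: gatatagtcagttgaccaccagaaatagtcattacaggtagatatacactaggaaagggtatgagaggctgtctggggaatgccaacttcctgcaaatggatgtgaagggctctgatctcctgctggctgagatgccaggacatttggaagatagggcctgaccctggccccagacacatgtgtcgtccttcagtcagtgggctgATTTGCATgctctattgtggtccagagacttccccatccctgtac
Cd22: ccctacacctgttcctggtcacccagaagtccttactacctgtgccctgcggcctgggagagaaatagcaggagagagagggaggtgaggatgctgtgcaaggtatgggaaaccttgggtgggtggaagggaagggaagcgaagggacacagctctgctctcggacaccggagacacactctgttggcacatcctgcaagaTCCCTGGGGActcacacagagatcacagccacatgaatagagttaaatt

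Genes that carry the antigen receptor signal gave none of 29 past 2-fold, beside 3.28% higher and 5.89% lower over all genes, and a summed ratio of 1.05 (0.98 to 1.12). Syk, the kinase that docks on CD79, had 0.93 (0.70 to 1.24), Btk 0.96 (0.59 to 1.55) and Lyn 1.15 (0.86 to 1.53). Blnk, the linker between them, had 0.72 (0.47 to 1.09) and the inhibitory Cd22 0.84 (0.54 to 1.29), and each of these 5 intervals included 1. The immunoglobulin constant genes had a summed ratio of 1.07 (1.04 to 1.11), and 1.03 (0.99 to 1.07) in unmixed cells.

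Among the lists of B cell subsets 1 gene was past 2-fold, Cd86, beside 5.89% lower over all genes, and none in unmixed cells. Follicular genes had none of 10 past 2-fold and a summed ratio of 1.11 (1.04 to 1.19), which was 1.25 (1.16 to 1.35) in unmixed cells. Marginal zone genes had none of 7 and 1.06 (0.84 to 1.35), plasma cell genes none of 4 and 1.01 (0.80 to 1.28), and precursor genes none of 4 and 0.97 (0.84 to 1.12). The B-1 list summed to 0.70 (0.50 to 0.96), and to 0.46 (0.26 to 0.77) in unmixed cells, with only 1 of its 10 genes measured. Of the age-associated list 3 of 10 genes were measured, and Cd86 was past 2-fold lower on 20 and 7 UMIs (0.45, 0.16 to 1.11), with 0.55 (0.19 to 1.40) in unmixed cells and 2.68 with cells thinned to 1000 UMIs. Germinal centre genes were all under the UMI minimum.

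Of 18 activation and immediate early genes, 2 were past 2-fold lower in old cells, Cd86 and Egr3 (0.35, 0.12 to 0.89), and 0 higher, beside 5.89% and 3.28% over all genes. In unmixed cells (3.27% lower and 3.37% higher over all genes) the lower ones were Egr1 (0.43, 0.21 to 0.80) and Egr3 (0.37, 0.12 to 0.97), while Nr4a1, which the antigen receptor induces, was past 2-fold higher at 2.24 (1.15 to 4.54). Fos had 0.61 (0.50 to 0.75) and Nfkbia, the inhibitor of NF-kappa-B, 0.65 (0.49 to 0.86), and in unmixed cells 0.68 and 0.67. The list as a whole summed to a ratio of 1.04 (0.98 to 1.09), and of 1.23 (1.15 to 1.31) in unmixed cells. Of 8 survival genes Bcl2, which blocks cell death, was past 2-fold higher at 3.08 (1.65 to 6.06), but had 1.69 (0.80 to 3.65) in unmixed cells and 0.67 with cells thinned to 1000 UMIs, and Nfkb2 was lower at 0.49 (0.19 to 1.15), or 0.53 (0.20 to 1.26) in unmixed cells, where none of the 8 was past 2-fold. Migration receptors had none of 11 past 2-fold, with Ccr7 at 1.35 (1.01 to 1.81), S1pr1 at 0.92 (0.73 to 1.16) and Cxcr4 at 1.32 (0.84 to 2.06). In unmixed cells 1 of the 11, Itgb7, was past 2-fold lower (0.46, 0.16 to 1.14), and the summed ratio was 1.28 (1.17 to 1.39), against 1.12 (1.03 to 1.20) over all B cells. Cytosolic ribosomal proteins (77) and mitochondrial genes (13) had none past 2-fold.

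By size, the genes furthest above 2-fold with intervals that left out 1, and a UMI in at least 10% of old cells, were Gadd45g, Hivep3, Il27ra, Znrd2, Egln2, Pmepa1, Zbp1, Ifi27l2a, Ogfrl1 and Ppm1b. Gadd45g, a stress gene, had 3 adult and 29 old UMIs (ratio 12.4, 3.85 to 63.7), of which 14 lay in 1 cell, and its unmixed ratio of 7.48 had an interval of 0.91 to 344. Il27ra, a cytokine receptor subunit, had 4 and 16 UMIs (5.14, 1.66 to 21.1), of which 6 old UMIs lay in 1 cell, and its unmixed ratio of 3.12 had an interval of 0.90 to 13.6. Hivep3 had the same counts, and 6.24 (1.76 to 33.6) in unmixed cells. Znrd2 had 5 and 18 UMIs (4.63, 1.66 to 15.9) spread over 16 of 62 old cells, and 5.30 (1.73 to 21.7) in unmixed cells. Egln2, an oxygen-sensing hydroxylase, had 4.37 (1.55 to 15.2). Pmepa1 (4.34) had 14 of its 27 old UMIs in 1 cell, and Ogfrl1 fell under 2-fold in unmixed cells, at 1.60 (0.53 to 5.07).

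The 10 genes furthest below were Hexim1, Dlgap4, Cfap97, Gm15675, Bcl2l12, Kif13b, Appl1, Hspa1b, Sbno2 and Slc39a10. Hexim1, which holds the elongation factor P-TEFb inactive, had 25 adult and 2 old UMIs (0.10, 0.012 to 0.41) in 21 of 83 and 2 of 62 cells, and 0.13 (0.015 to 0.54) in unmixed cells. Hspa1b, a heat shock protein, had 22 and 4 UMIs (0.23, 0.059 to 0.69), and in unmixed cells 11 and 0. Sbno2 had 0.24 (0.061 to 0.73), and 1.34 with cells thinned to 1000 UMIs. Slc39a10, a zinc importer, had 45 and 9 UMIs (0.26, 0.11 to 0.53), but 22 of the adult UMIs lay in 1 cell, and in unmixed cells it had 4 in each library with a ratio of 1.25 (0.23 to 6.70). Except for Slc39a10 these genes had under 30 UMIs in adult and old cells together, and no second library of either age was there to set beside them.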

How the data were processed

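The authors deposited filtered droplet matrices of raw UMI counts per gene and barcode, 1 for each age, which the submitters' processing notes credit to Cell Ranger 6.1.2 and the mm10 genome build. The counts were used as deposited. The limits on genes and mitochondrial share are those the study states. Members, gene lists and tests were chosen with earlier results of these data known. UMIs were summed over the B cells of a library and divided by their total (CPM), with exact Poisson intervals, exact conditional intervals for ratios and Clopper-Pearson intervals for shares (95%, scipy 1.17.1), and the summing scripts were tested on simulated data. A count of 0 was read as at most 3 counts. Genes were compared with at least 20 UMIs in adult and old B cells together and called past a ratio of 2 or of 0.5. The named genes were the 10 with the highest and the 10 with the lowest ratio whose interval left out 1 and which had a UMI in at least 10% of the B cells of the higher library, the 15 genes outside the 8 of the rule with the highest level in B cells over other barcodes among genes with a UMI in at least 20% of B cells, and list members. Rods held at least 7 of 10 rod markers, with at most 1 endothelial and at most 1 pericyte marker. This limits the free RNA of vessel cells that rods can show. Endothelial barcodes held at least 8 of 12 endothelial markers and at most 2 pericyte markers. The marker counts that define mixed droplets left out a few markers that are not specific to their cell type, such as Ly6a, Apoe, Glul and Tyrobp. Some members of the lists enter their counts and sums but are not reported here by name. Scrublet was run per library in scanpy 1.11.5 and marked 0.467 to 0.861% of kept barcodes. No barcode was removed by it in the main values. Alternatives covered the rule, the limits, depth, scaling, gene minimums and mixed droplets. Promoter windows and motifs used RefSeq coordinates of GRCm38.p6, the assembly behind mm10.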

Additional observations from a re-analysis of the deposited data

How the results depend on the processing

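No paired analysis was possible because each age has 1 library, and for the same reason no replicate could be left out. The share of B cells was 2.62% (adult) and 2.33% (old) with no limits on genes or mitochondrial share, and 5.83% and 4.97% with 1000 to 6000 genes and 1 to 10% mitochondrial UMIs; the young share stayed lowest in both. The summed interferon ratio was 2.39 with 5 rule genes required, 2.49 without Scrublet calls and B cells with 2 or more endothelial markers, 2.43 with cells thinned to 1000 UMIs, 2.47 without mixed droplets and 1.65 without Ifi27l2a, so it stayed above 1 in each. Thinning gave 1.32 for MHC class I, 1.00 for class II and 1.03 for B lineage genes. Class II genes had 1.07 with 5 rule genes required, and B lineage genes 1.03 without Scrublet calls and endothelial markers and 1.01 with each cell weighing the same. Genes past 2-fold higher and lower numbered 30 and 29 after thinning, 2291 and 2583 with no UMI minimum and a pseudocount of 0.5 UMI, and 20 and 52 with at least 50 UMIs. Those lower were 99 without Scrublet calls and endothelial markers and 103 without mixed droplets. Kappa called at 90% or more fell to 15.9% in adult and 9.68% in old cells. Thinning turned Sbno2 (1.34), Xaf1 (0.89), Ighm (0.99), Ly6d (0.95) and Bcl2 (0.67), and Slc39a10 turned to 1.21 without Scrublet calls and endothelial markers and 1.25 without mixed droplets. Where no value above shows it, the cause was not tested. One tally held the shares, the counts and the ratios of the interferon, MHC class I, MHC class II, B lineage and antigen receptor lists. Of these values under an alternative, 73 stayed within their limits and the 25 given above moved. Of single genes and some other lists, 688 values kept their direction and size within their interval, 57 moved and 7 reversed. Reversed means that the interval of the value first given left out 1. The follicular, migration and activation sums without mixed droplets are among those moved, and the B-1 list was in neither tally. Isg15, whose interval included 1, is counted as moved. Mixed droplets, CD31 enrichment and the depth per cell limit what low genes can show. The variants without mixed droplets and without Ifi27l2a were chosen after seeing the data.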

Other observations

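Genes of the Ly6 family and Klf2 were looked at in unmixed B cells after their values were seen, and were chosen for this section for that reason. Ly6a, which encodes the surface protein Sca-1 and is also an endothelial marker, was at 390 CPM in young, 200 in adult and 440 in old unmixed cells, with a ratio of old to adult of 2.20 (1.59 to 3.08). Over all B cells, mixed droplets included, it was at 399 CPM in adult and 494 in old, a ratio of 1.24 (0.98 to 1.55). It had a UMI in 25 of 74 adult cells (33.8%), in 32 of 56 old cells (57.1%) and in 6 of the 9 young ones, against 0.623 to 4.31% of rods. Ly6c1, the endothelial member, gave 1 UMI in adult and 1 in old unmixed cells. Ly6c2 gave no UMI in young and adult unmixed cells and 17 in old ones, in 5 cells. Ly6e was in every unmixed cell, at 1865 CPM in young, 1689 in adult and 1849 in old, a ratio of 1.09 (0.96 to 1.25). Ly6a and the other Ly6 genes share sequence, so their split is uncertain. Klf2 was at 1473 CPM in adult and 2335 in old unmixed cells, a ratio of 1.59 (1.40 to 1.80), and at 3202 CPM in the 9 young cells.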
